A study of Mus musculus with 8 samples.

Results

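The 10 genes described here encode subunits of ATP-dependent chromatin remodellers: the SWI/SNF (BAF) catalytic subunits Smarca4 and Smarca2 with the accessory subunits Smarcb1, Smarcc1, Smarcd1, Smarce1 and Arid1a, the ISWI ATPase Smarca5, and the CHD-family ATPases Chd1 and Chd4. They were picked by gene symbol, and all 10 were among the 55487 genes of the deposited count table. RNA was sequenced from 8 pools of mouse 2-cell embryos, each of 5 embryos, to ask what knockdown of Polq (DNA polymerase theta) does to the transcriptome. Injection was done in zygotes, 20 h after the ovulating dose of human chorionic gonadotropin (hCG), and the RNA was extracted 10 h after that. The 4 control pools, of genotype WT in the labels, received CasRX, an RNA-cutting CRISPR nuclease, and the 4 knockdown-labelled pools, of genotype polq knockdown in the labels, received CasRX together with a guide RNA against Polq. Both groups thus carried the nuclease and the injection, and neither a control guide nor an uninjected group is named. No mouse strain and no age of the females is stated in the labels.

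Chromatin remodellers use the energy of ATP to slide, evict or space nucleosomes. SWI/SNF complexes carry either Smarca4 (BRG1) or Smarca2 (BRM) as their motor. In the canonical BAF and PBAF forms the core holds Smarcc, Smarcd, Smarcb1 and Smarce1 subunits, and an ARID protein defines the form. ISWI complexes, driven by Smarca5 (SNF2H), space nucleosomes evenly. Chd1 acts at transcribed genes, and Chd4 is the motor of the NuRD complex, which couples remodelling to histone deacetylation. In the mouse oocyte and early embryo these proteins are first supplied from maternal stores, and maternal Smarca4 is known to be needed for activation of the zygotic genome.

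Smarca4 and Smarca2 are close paralogs whose RNA levels are set side by side here, so it matters whether their reads can be told apart. The longest run of identical bases between their longest coding transcripts is 20 bases, and none of the 6327 windows of 50 bases in Smarca4 occurs in Smarca2. The stretches that hold that run are printed below from the GENCODE M21 transcripts (GRCm38), in the sense orientation, with the shared run in capitals and the neighbouring coding bases in lower case. The Smarca4 stretch lies in a coding exon on the plus strand at chr9:21635705-21635804, and the Smarca2 stretch in a coding exon on the plus strand at chr19:26630845-26630944.
Smarca4: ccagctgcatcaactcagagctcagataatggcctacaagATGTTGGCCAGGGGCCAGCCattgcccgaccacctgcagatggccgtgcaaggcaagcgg
Smarca2: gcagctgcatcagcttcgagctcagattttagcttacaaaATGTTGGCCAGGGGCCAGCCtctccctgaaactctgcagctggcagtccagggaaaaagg

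The same holds for the ISWI pair Smarca5 and Smarca1, whose longest shared run is 21 bases. It is shown because Smarca1 had no reads at all. The stretches cross a junction between coding exons on the minus strand, at chr8:80726082-80726271 for Smarca5 and chrX:47875256-47876445 for Smarca1.
Smarca5: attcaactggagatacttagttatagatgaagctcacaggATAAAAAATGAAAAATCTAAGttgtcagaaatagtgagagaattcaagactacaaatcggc
Smarca1: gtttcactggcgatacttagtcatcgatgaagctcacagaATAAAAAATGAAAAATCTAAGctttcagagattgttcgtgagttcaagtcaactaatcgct
Across the 9 paralog pairs compared (Smarca4 with Smarca2, Smarca5 with Smarca1, Smarcc1 with Smarcc2, Smarcd1 with Smarcd2 and Smarcd3, Arid1a with Arid1b, Chd1 with Chd2, and Chd4 with Chd3 and Chd5), the longest shared run ranged from 18 bases to 35 bases (Chd4 with Chd3), and no 50-base window was shared. Processed pseudogenes share more. Of the 50-base windows of Smarca5 and Smarce1, 35.3% and 35.1% also occur in transcripts of other annotated genes, mostly processed pseudogenes, so the counts of these genes rest in part on the division of reads by estimation.

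The control libraries held 33311679 to 43748629 counts, and the knockdown-labelled libraries 4726160 to 33650068, with replicates 1, 2 and 3 at or below 8627402. Polq was at 34.6, 49.7, 40.1 and 32.7 counts per 1000000 (CPM, scaled between libraries) in control replicates 1 to 4 and at 16.9, 38.9, 29.2 and 41.1 CPM in knockdown-labelled replicates 1 to 4. The groups overlapped (edgeR log2 fold change −0.32, SE 0.34, adjusted p = 1.0; 2-sided exact permutation test p = 0.343, where 0.0286 is the smallest possible), so each library is called by its label. Summed markers of the maternal oocyte (3331 to 5838 CPM in the controls, 3686 to 5798 in the knockdown-labelled libraries) and of the 2-cell burst (432 to 1005 and 518 to 981 CPM) were high in all 8 libraries. Of 10 cumulus and granulosa cell markers, 7 had no count in any library, Foxl2 and Fshr among them. Tnfaip6, Amh and Cyp19a1 had counts, and 2 of the 10 reached 1 CPM in at least 1 library. The list summed to at most 21.45 CPM. Blastocyst and blood markers had 3 of 6 members each at 0 in every library, and summed to at most 28.3 and 16.2 CPM.

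Smarca2 was the most abundant of the SWI/SNF genes and the gene with the largest separation between the groups relative to its error. It was at 430, 902, 577 and 521 CPM in control replicates 1 to 4 and at 539, 273, 249 and 361 CPM in knockdown-labelled replicates 1 to 4. Knockdown-labelled replicates 2, 3 and 4 lay below all 4 controls, while replicate 1 lay within the control range, so the groups overlapped. The means were 608 ± 206 and 355 ± 131 CPM (SD, n = 4), and the fit put the knockdown-labelled level at 58.5% of control, with a 95% interval from 37.0% to 92.5% (log2 fold change −0.77, SE 0.30). The unadjusted p was 0.0262, and Smarca2 did not pass over all genes tested (edgeR quasi-likelihood test, adjusted p = 1.0). The log2 fold change was −0.52 without control replicate 2, the highest library, and −1.04 without knockdown-labelled replicate 1. A level in these libraries is a share of the RNA of pooled embryos, so fewer embryos or cells with the transcript and less of it per cell cannot be told apart.

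Smarca2 (ENSMUSG00000024921.17) spans chromosome 19 from 26605050 to 26778322 on the plus strand (GRCm38). Of its 27 annotated coding transcripts, 20 start in the last part of the gene, from 26747600 onward, and these are 630 to 2333 bases long (median 898), against 5921 bases for the longest. Counts per gene do not show which of them the reads came from. It overlaps Gm20616 and 4931403E22Rik on the other strand, and Gm20616 averaged 1 CPM over the controls and 1.04 CPM over the knockdown-labelled libraries, while 4931403E22Rik did not exceed 0.183 CPM in any library.

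Smarca4, the alternative SWI/SNF motor, was at 17.2, 15.1, 5.58 and 9.68 CPM in control replicates 1 to 4 and at 6.74, 10.6, 16.4 and 25.7 CPM in knockdown-labelled replicates 1 to 4. The groups overlapped widely, and the highest library was knockdown-labelled replicate 4. The means were 11.9 ± 5.26 and 14.9 ± 8.25 CPM (SD, n = 4), or 125% of control (95% interval 52.6% to 299%, edgeR adjusted p = 1.0). Without knockdown-labelled replicate 4 the log2 fold change went from 0.33 to −0.082. Smarca4 (ENSMUSG00000032187.16) lies on chromosome 9 from 21616169 to 21704230, on the plus strand.

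Smarca2 RNA exceeded Smarca4 RNA in every library when both were taken per kilobase of the longest coding transcript. The ratio of the per-kilobase levels was 26.9, 64.4, 111 and 57.9 in control replicates 1 to 4, and 86.1, 27.8, 16.3 and 15.1 in knockdown-labelled replicates 1 to 4. Both groups spanned a wide range and overlapped, with medians of 61.2 and 22.1. The difference in this ratio was not tested, since the ratio was chosen after the levels of the genes were known. At the median length of the late-starting transcripts, 0.898 kb in place of 5.921 kb, the control level of Smarca2 would be 676.5 CPM per kilobase in place of 103.

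**Figure D1:**
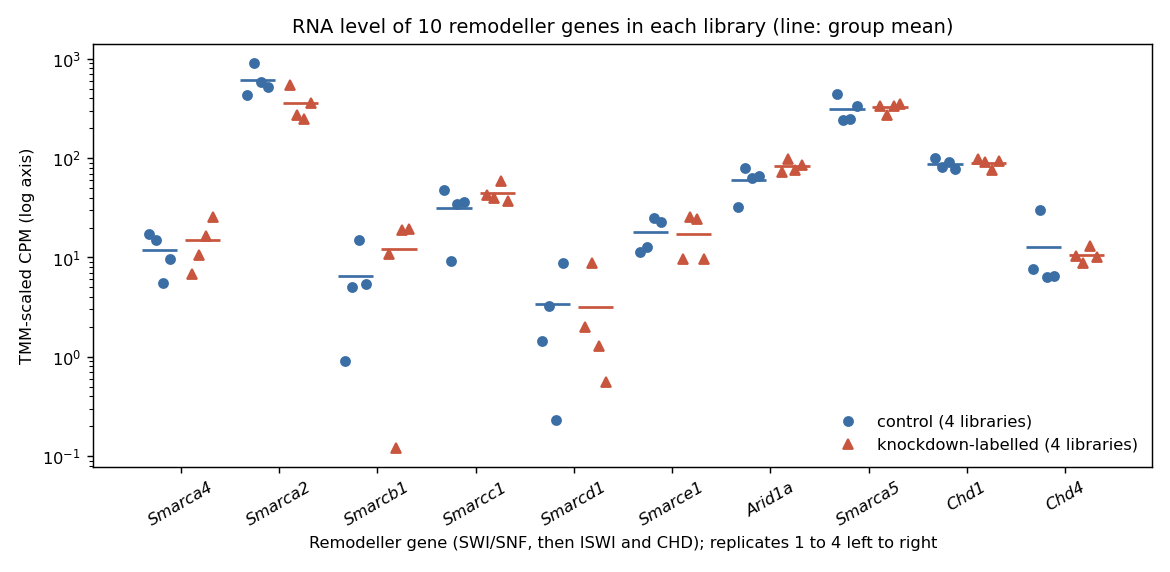
TMM-scaled CPM (log axis) of the 10 remodeller genes in each of the 4 control (circles) and 4 knockdown-labelled libraries (triangles), with a line at each group mean. The groups overlap for every gene: Smarca2 lies between 249 and 902 CPM, and Smarcd1 between 0.229 and 8.75 CPM.

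The core subunits of SWI/SNF were less abundant than Smarca2, and for all 4 of them the group means differed by less than the SD of at least 1 group. Smarcb1 (SNF5), a core subunit that contacts the nucleosome, was at 0.917, 5.04, 14.9 and 5.45 CPM in control replicates 1 to 4 and at 10.9, 0.122, 18.7 and 19.2 CPM in knockdown-labelled replicates 1 to 4. Knockdown-labelled replicate 2 rested on 1 count and control replicate 1 on 30 counts, while the other 3 knockdown-labelled libraries lay above 3 of the 4 controls. The means were 6.57 ± 5.91 and 12.2 ± 8.94 CPM (SD, n = 4), with a fitted level of 186% of control and a 95% interval from 32.0% to 1086%. Without knockdown-labelled replicate 2 the mean of that group was 16.3 CPM, and without control replicate 3 the control mean was 3.80 CPM. Smarcb1 (ENSMUSG00000000902.13) lies on chromosome 10 from 75896769 to 75921617, on the minus strand.

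Smarcc1 (BAF155), a scaffold subunit of the core, was at 47.4, 9.20, 34.2 and 36.4 CPM in control replicates 1 to 4 and at 42.6, 39.9, 59.3 and 36.6 CPM in knockdown-labelled replicates 1 to 4. Control replicate 2 was low, and the other 7 libraries lay between 34.2 and 59.3 CPM. The fitted level was 140.1% of control (95% interval 70.1% to 280.1%), from means of 31.8 ± 16.2 and 44.6 ± 10.1 CPM (SD, n = 4). Without control replicate 2 the control mean was 39.4 CPM and the log2 fold change 0.18 in place of 0.49. Smarcc1 (ENSMUSG00000032481.17, chromosome 9 from 110117708 to 110240178, plus strand) overlaps Dhx30 on the other strand, which was at 16.7 and 19.8 CPM, and with the strand setting not given their reads cannot be told apart where they overlap.

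Smarcd1 (BAF60A), a subunit that links the complex to transcription factors, was the least abundant of the 10 genes. It was at 1.44, 3.28, 0.229 and 8.73 CPM in control replicates 1 to 4 and at 1.98, 8.75, 1.27 and 0.564 CPM in knockdown-labelled replicates 1 to 4. Each group had a single library above 8 CPM, and the groups covered almost the same range. The means were 3.42 ± 3.76 and 3.14 ± 3.78 CPM (SD, n = 4), and the 95% interval of the fitted level ran from 11.8% to 715% of control. Counts were 10 to 375 per library, with 10 in control replicate 3 and in knockdown-labelled replicate 1, and 375 in control replicate 4. Without control replicate 4 the control mean was 1.65 CPM, and without knockdown-labelled replicate 2 the mean of that group was 1.27 CPM. Smarcd1 (ENSMUSG00000023018.5) lies on chromosome 15 from 99702129 to 99713991, on the plus strand, where 3 annotated genes overlap it on the other strand, all at or near 0 CPM.

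Smarce1 (BAF57), an HMG-box subunit that binds DNA, was at 11.2, 12.7, 24.7 and 22.9 CPM in control replicates 1 to 4 and at 9.72, 25.3, 24.4 and 9.62 CPM in knockdown-labelled replicates 1 to 4. Each group split into a lower and a higher pair of libraries, and the means were 17.9 ± 6.92 and 17.2 ± 8.76 CPM (SD, n = 4; 96.4% of control, 95% interval 44.9% to 207%). The processed pseudogenes that share windows with Smarce1 had little signal of their own, with Gm8494 and Smarce1-ps1 at control means of 0.0807 and 0.095 CPM. Smarce1 (ENSMUSG00000037935.16) lies on chromosome 11 from 99209047 to 99231017, on the minus strand.

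Arid1a (BAF250A), an ARID subunit of the canonical BAF form of the complex, was at 32.4, 80.2, 63.4 and 66.0 CPM in control replicates 1 to 4 and at 73.0, 98.9, 76.2 and 85.7 CPM in knockdown-labelled replicates 1 to 4. All 4 knockdown-labelled libraries lay above 3 of the 4 controls, and control replicate 2 lay among them. The means were 60.5 ± 20.1 and 83.4 ± 11.6 CPM (SD, n = 4), and the fitted level was 138% of control (95% interval 88.5% to 215%, log2 fold change 0.46, SE 0.29, edgeR adjusted p = 1.0). Without control replicate 1, the lowest library, the log2 fold change was 0.26. Arid1a (ENSMUSG00000007880.16) lies on chromosome 4 from 133679008 to 133756769, on the minus strand.

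The ISWI motor Smarca5 and the CHD motor Chd1 were the most even of the 10 genes across libraries. Smarca5 was at 437, 240, 246 and 333 CPM in control replicates 1 to 4 and at 332, 274, 336 and 352 CPM in knockdown-labelled replicates 1 to 4. All 4 knockdown-labelled libraries lay within the control range. The means were 314 ± 92.6 and 324 ± 34.2 CPM (SD, n = 4), with a fitted level of 103% of control and a 95% interval from 74.0% to 144%. The 6 Smarca5 pseudogenes that share windows with it summed to 71.3 ± 9.915 CPM among the controls and to 65.2 ± 11.9 CPM among the knockdown-labelled libraries, so that the split of reads among these copies bears on the level of Smarca5. Smarca5 and its pseudogenes together came to 385 ± 102 and 389 ± 44.4 CPM (SD, n = 4). Smarca5 (ENSMUSG00000031715.14) lies on chromosome 8 from 80698507 to 80739497, on the minus strand.

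Chd1, which binds methylated histone H3 lysine 4 through its chromodomains, was at 101.4, 82.0, 91.0 and 77.8 CPM in control replicates 1 to 4 and at 98.4, 91.9, 75.6 and 93.4 CPM in knockdown-labelled replicates 1 to 4. The groups covered nearly the same narrow range, and the fitted level was 102% of control (95% interval 75.5% to 138%) from means of 88.0 ± 10.5 and 89.8 ± 9.87 CPM (SD, n = 4). Chd1 (ENSMUSG00000023852.14) lies on chromosome 17 from 15704967 to 15772610, on the plus strand.

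Chd4, the NuRD motor, was at 7.73, 30.3, 6.43 and 6.49 CPM in control replicates 1 to 4 and at 10.3, 8.87, 12.9 and 10.0 CPM in knockdown-labelled replicates 1 to 4. Control replicate 2 stood far above every other library, and the 4 knockdown-labelled libraries lay above the other 3 controls. With all libraries the means were 12.7 ± 11.7 and 10.5 ± 1.72 CPM (SD, n = 4) and the log2 fold change was −0.27 (SE 0.62, edgeR adjusted p = 1.0). Without control replicate 2 the control mean was 6.89 CPM and the log2 fold change turned to 0.62. Chd4 (ENSMUSG00000063870.12) lies on chromosome 6 from 125095981 to 125130591, on the plus strand.

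Per kilobase of the longest coding transcript, 3 genes of motors stood highest in the controls, while the motor genes Chd4 and Smarca4 stood 8th and 9th. For Smarca2, whether the reads came from transcripts that encode the whole motor was not tested. Smarca2 stood at 103 ± 34.7 CPM per kilobase, Smarca5 at 51.4 ± 15.1 and Chd1 at 11.1 ± 1.32 (SD, n = 4). The control ranges of these 3 genes overlapped neither each other nor that of Arid1a, the next gene, at 7.39 ± 2.46 CPM per kilobase. The gap between Smarca2 and Smarca5 was narrow, with a lowest control value of 72.6 for Smarca2 and a highest of 71.6 for Smarca5. In the knockdown-labelled libraries the ratio of Smarca2 to Smarca5 per kilobase ran from 0.764 to 1.67, and their ranges overlapped. Reads assigned to the Smarca5 pseudogenes are not part of its level here. With them added, Smarca5 was at 522.3 CPM in control replicate 1, against 430 CPM for Smarca2. At lengths of 6.113 kb for Smarca5 and 5.921 kb for Smarca2, their control ranges then overlap. Smarce1 (6.12 ± 2.37), Smarcc1 (5.51 ± 2.80), Smarcb1 (3.96 ± 3.56), Chd4 (1.90 ± 1.75), Smarca4 (1.86 ± 0.825) and Smarcd1 (1.03 ± 1.14) followed, and from Arid1a downward the range of each gene overlapped that of the next. Smarca2 lay above 94.4% and Smarca5 above 90.4% of the 12793 tested genes with an annotated length, on this per-kilobase scale in the controls. Smarca4, Chd4 and Smarcd1 lay at the percentiles 35.1, 35.6 and 22.7. The pair Smarca2 and Smarca5 made up 77.4% to 82.8% of the summed CPM of the 10 genes in the controls, and 65.8% to 77.5% in the knockdown-labelled libraries.

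**Figure D2:**
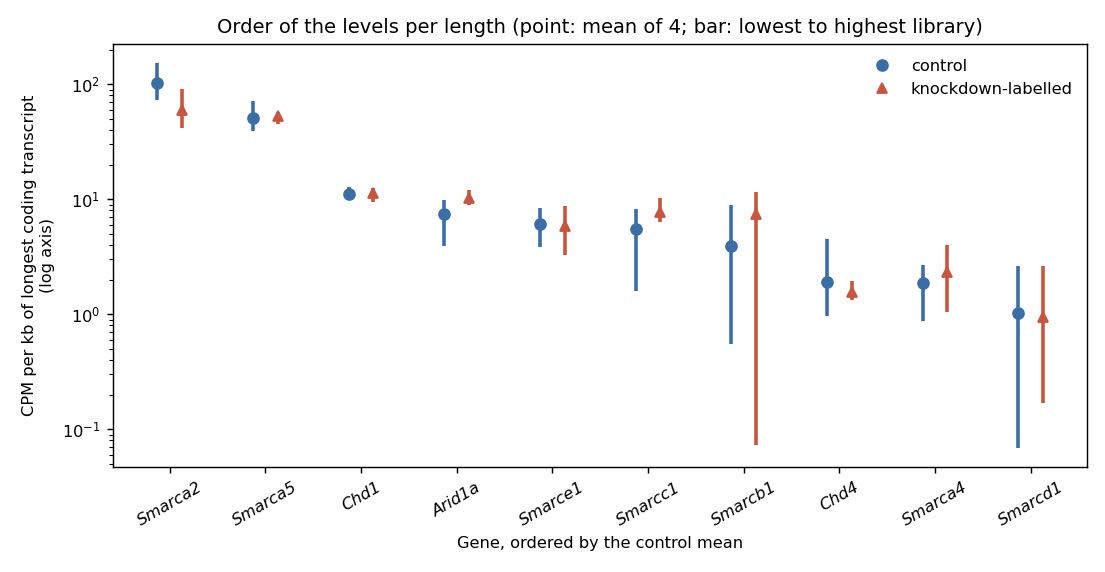
CPM per kilobase of the longest coding transcript (log axis) for the 10 genes, ordered by the control mean, with points at the mean of 4 libraries and bars from the lowest to the highest library. Smarca2, Smarca5 and Chd1 have control bars that do not overlap, at means of 103, 51.4 and 11.1. Reads of the Smarca5 pseudogenes are left out, and with them the control ranges of Smarca2 and Smarca5 overlap. The bars of neighbouring genes overlap from Arid1a downward.

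The spread within a group was not the same for all members. Among the 3828 genes with a mean of 5 to 20 CPM, the highest control library exceeded the lowest by a median of 4.60-fold. In that class Smarcb1 spanned 16.2-fold over the controls, Chd4 4.71-fold, Smarca4 3.08-fold and Smarce1 2.20-fold. Among the 2967 genes at 20 to 100 CPM the median was 2.30-fold, against 5.16-fold for Smarcc1, 2.48-fold for Arid1a and 1.30-fold for Chd1. Smarca2 and Smarca5 spanned 2.10-fold and 1.82-fold, where the 1303 genes at 100 CPM or more had a median of 1.65-fold. The Smarcc1 value rests on control replicate 2, without which the controls lay between 34.2 and 47.4 CPM, and over the knockdown-labelled libraries Smarcc1 spanned 1.62-fold against a class median of 2.19-fold. Chd1 spanned less than the median of its class in both groups, with 1.30-fold over the knockdown-labelled libraries as well. Over those libraries Smarcb1 spanned 158-fold, resting on 1 count, Chd4 1.46-fold, Smarca4 3.81-fold and Smarce1 2.63-fold, against a class median of 4.50-fold. Arid1a, Smarca2 and Smarca5 spanned 1.36-fold, 2.17-fold and 1.29-fold there. Smarcd1, with a mean below 5 CPM and so in none of these classes, spanned 38.2-fold over the controls and 15.5-fold over the knockdown-labelled libraries.

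None of the 10 genes passed the transcriptome-wide comparison of the groups, and no gene of the whole table did (0% of 13146 tested). All 10 passed the filter on low counts. At an unadjusted p under 0.05 edgeR gave 1 of the 10, Smarca2, where 2.81% of all genes did. DESeq2 and limma-voom also called 0 of the 10 after adjustment and gave Smarca2 alone at an unadjusted p under 0.05, while DESeq2 called 20 genes (0.154% of 13002) and limma-voom 0 in the whole table. The groups did not overlap for 0 of the 10 genes, against 2.98% of all genes tested. Log2 fold changes were positive for 6 of the 10 and negative for 4, where 46.6% of all genes were positive and 53.4% negative, and their median was 0.036, against −0.047 over all genes. That median was −0.0037 with no filter on low counts and positive under the other alternatives. The intervals set what could have been seen: those of Chd1 and Smarca5 ended within 75.5% to 138% and 74.0% to 144% of control, and those of Smarcb1 and Smarcd1 reached beyond 7-fold on the upper side.

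**Figure D3:**
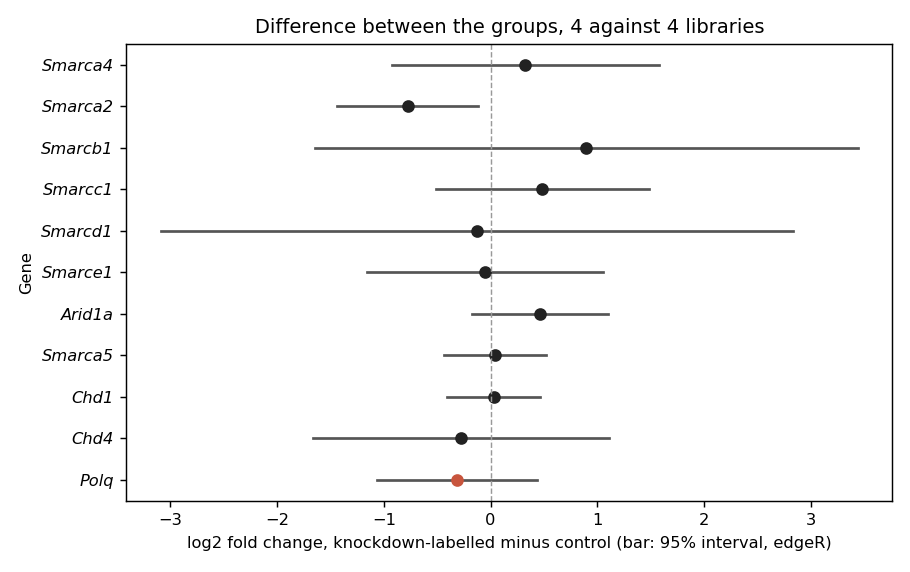
Log2 fold change of each of the 10 genes and of Polq, knockdown-labelled minus control, as points with 95% intervals from the edgeR fit. The interval of Smarca2 (−0.77) lies below 0 without passing after adjustment, the intervals of Chd1 and Smarca5 are narrow around 0, and those of Smarcb1 and Smarcd1 are the widest.

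The paralogs of these genes ranged from no counts in any library to levels above those of the member itself. Smarca1, the other ISWI motor, had 0 counts in all 8 libraries, which allows at most 0.0686 to 0.635 counts per 1000000 (3 counts of each library's total, counting error only). Smarcd3 also had 0 counts in every library, while Smarcd2 was at 20.7 ± 7.25 CPM (control) and 20.6 ± 4.83 CPM (knockdown-labelled). Per kilobase Smarcd2 stood at 7.53 ± 2.64 in the controls, above Smarcd1 at 1.03 ± 1.14. Smarcc2, the paralog of Smarcc1, had 229 counts in control replicate 3 and at most 1 count in the other controls, and was at 2.29 ± 2.40 CPM in the knockdown-labelled libraries. Of the ARID genes, Arid1b was at 47.4 ± 12.3 and 35.4 ± 7.56 CPM, and Arid2, which defines the PBAF form of the complex, was at 57.2 ± 4.49 and 56.4 ± 13.9 CPM. Arid1b, unlike Arid1a, had a negative log2 fold change (−0.42, SE 0.29, edgeR adjusted p = 1.0), and whether the pair differ in response was not tested. Chd2 was at 0.799 ± 1.40 and 4.32 ± 2.93 CPM, with 0 to 92 counts per library. Chd3 and Chd5, the paralogs of Chd4, had counts in 2 libraries and in 1 library, at most 63 and 15.

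The 3 lists of other SWI/SNF, ISWI and CHD or NuRD genes gave no called gene either, where 0% of the 13146 genes tested were called. The 3 lists were compiled with earlier results of these data known. Of the 23 other SWI/SNF subunits 17 were tested, with 6 positive and 11 negative log2 fold changes (median −0.19). Of the 12 other ISWI genes 11 were tested, with 8 positive and 3 negative (median 0.11), and of the 17 other CHD and NuRD genes 14, with 8 positive and 6 negative (median 0.15). All genes tested had a median of −0.047, with 46.6% positive and 53.4% negative. At an unadjusted edgeR p under 0.05 the 3 lists held 0, 2 and 1 genes, where 2.81% of all genes tested did so. Genes whose groups did not overlap numbered 1, 2 and 2, where 2.98% of all genes had such groups.

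**Figure D4:**
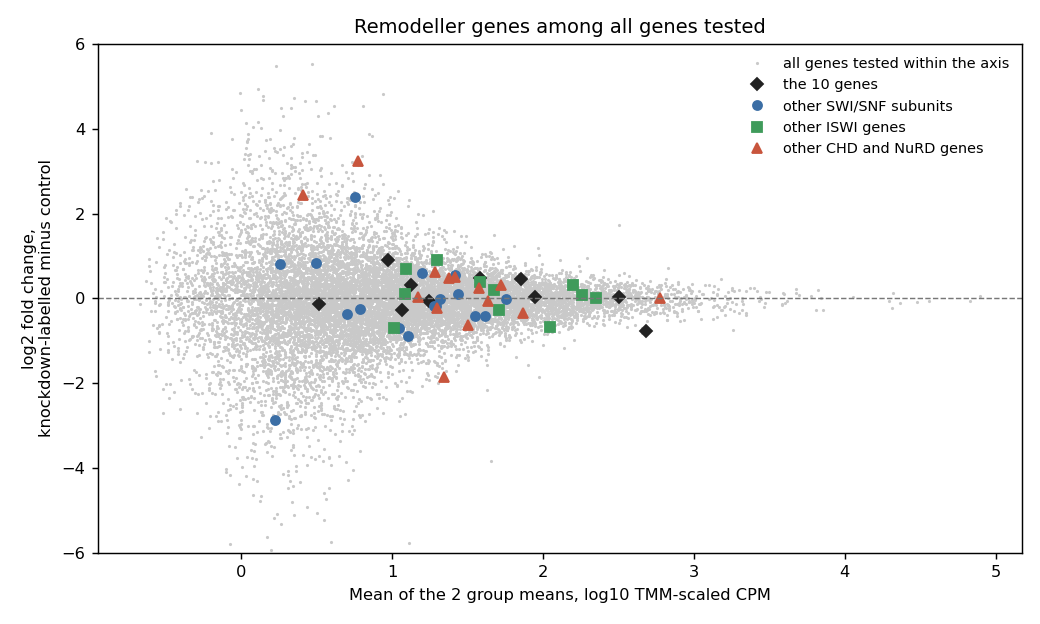
Log2 fold change, knockdown-labelled minus control, against the mean level (log10 CPM) for the 10 genes (diamonds), 3 lists of other remodeller genes and all genes tested (grey; 21 genes lie beyond the axis limit of 6). The remodeller genes lie among the other genes of their level, and the largest values belong to low-count genes such as Mbd3 (3.25) and Bicra (−2.88).

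Pole3, which has a histone fold and serves both ISWI (CHRAC) complexes and DNA polymerase epsilon, had the smallest p of the lists. It was at 133, 161, 89.7 and 168 CPM in control replicates 1 to 4 and at 84.7, 92.5, 74.2 and 92.8 CPM in knockdown-labelled replicates 1 to 4. Control replicate 3 lay within the knockdown-labelled range, and the log2 fold change was −0.68 (SE 0.23, unadjusted p = 0.0148, edgeR adjusted p = 1.0). Chrac1, its histone-fold partner in CHRAC, went the other way, at 8.96, 16.9, 15.3 and 14.1 CPM in control replicates 1 to 4 and at 32.1, 27.8, 21.4 and 21.8 CPM in knockdown-labelled replicates 1 to 4. The groups did not overlap for Chrac1 (0.90, SE 0.36, unadjusted p = 0.0325, edgeR adjusted p = 1.0), which overlaps Ago2 on the other strand. Rbbp7, a histone-binding protein of many complexes and the most abundant of the ISWI list, was at 224 ± 57.7 and 225 ± 34.4 CPM.

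In the CHD and NuRD list, Mbd3, a NuRD subunit, had 89, 0, 42 and 36 counts in control replicates 1 to 4 and 26, 124, 140 and 212 counts in knockdown-labelled replicates 1 to 4. Scaled to library size these were at most 2.72 CPM among controls and at least 5.16 CPM among knockdown-labelled libraries, without overlap (means 1.13 ± 1.14 and 10.8 ± 5.66 CPM, SD, n = 4, edgeR adjusted p = 1.0). Chd6 had a control mean of 34.6 ± 6.08 CPM and was at 11.7, 0.122, 5.08 and 21.3 CPM in knockdown-labelled replicates 1 to 4, again without overlap, and replicate 2 rested on 1 count. Cdk2ap1, the most abundant gene of this list, was at 598 ± 130.3 and 598 ± 86.4 CPM. Among the SWI/SNF subunits Bicra, which marks the non-canonical BAF form, was at 2.94 ± 1.25 and 0.396 ± 0.531 CPM with at most 10 counts in any knockdown-labelled library. Dpf3 was at 1.82 ± 2.97 and 9.61 ± 3.89 CPM, and its groups overlapped through control replicate 4.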

How the data were processed

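RNA of 8 pools of 2-cell embryos was sequenced, 4 per group. The processing notes of the submitters name Trim Galore 0.6.10, RSEM 1.2.28 and STAR 2.7.3a, with the build GRCm38 (mm10). The authors deposited expected counts per gene, not normalised. The labels state neither the annotation release nor the strand setting. Without molecular identifiers a count is not a molecule.

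Expected counts were rounded, which altered 4.22% of values. The filter filterByExpr (minimum count 10, minimum total 15) left 13146 of 55487 genes. Libraries were scaled by TMM, and groups compared with edgeR 4.0.16 (quasi-likelihood test, robust, group only) in R 4.3.3, with Benjamini-Hochberg adjustment over all genes tested and a threshold of 0.05. Fold changes are knockdown-labelled minus control. Alternatives included DESeq2 1.42.0 and limma-voom (limma 3.58.1). Lengths, positions and sequences come from GENCODE M21 (GRCm38), and 53181 of the 55487 symbols matched it. The series text calls the pools biological replicates.

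The members and gene lists were chosen with earlier results of these data known. Named beyond the 10 genes and Polq are their paralogs and, in each of the 3 wider lists, the 2 genes with the smallest p and the most abundant gene. Genes of overlaps and pseudogenes were added after their values were seen.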

Additional observations from a re-analysis of the deposited data

Results flagged for a closer look

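Chd4 in control replicate 2 was at 30.3 CPM, while the other 3 controls lay between 6.43 and 7.73 CPM, a gap beyond what Dixon's criterion allows for 4 values. The library total of knockdown-labelled replicate 4, 33650068 counts, stood apart in the same way from the other 3 of its group, which held 4726160 to 8627402 counts. In all, 24 groups of 4 values were examined (10 genes, Polq and the library totals in each group), and chance flags about 1 group in 20.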

How the results depend on the processing

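No setting called any of the 10 genes or of the other remodeller genes it tested (42 of 52 in the reported fit), with each library left out in turn among them. With knockdown-labelled replicate 4 as the only library of its group, a setting chosen after seeing the data, the spread comes from the controls alone and the lone library is assumed to vary like them, so its lack of calls says little. In the whole table the count was 20 with DESeq2 and 0 otherwise. The replicate numbers did not pair the samples (correlations of same-numbered deviations −0.075 to 0.0085, and 0 of 4 libraries closest to their own number). The replicate block called 0 genes and moved the median of the 10 genes to 0.21. The median ran from 0.067 to 0.18 with 1 library left out. The Polq log2 fold change ran from −0.47 to −0.11 with 1 library left out and was 0.073 with knockdown-labelled replicate 4 alone. The log2 fold changes of Smarca2, Smarcb1, Smarcc1 and Arid1a kept their sign in all settings. With the block, Smarcd1 was at 0.45 and Chd4 at 0.12. Chd4 was at 0.13 with limma-voom, and Chd1 at −0.012 with no filter. With 1 library left out, the values ran from −0.082 to 0.57 for Smarca4, −0.061 to 0.25 for Smarca5, −0.028 to 0.11 for Chd1, −0.50 to 0.62 for Chd4, −1.43 to 0.93 for Smarcd1 and −0.29 to 0.14 for Smarce1. The stricter filter and the thinned libraries gave no value for Smarcd1. The cause of these changes was not tested.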
